A study of Gallus gallus with 9 samples.

Results

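This comparison set the maxillary prominence of the chicken embryo against the frontonasal mass, 2 facial buds that contribute to the upper beak. Its members are the 3 arrays titled maxillary prominence and the 3 titled frontonasal mass prominence, so 6 of the 9 arrays of the series. The remaining 3 arrays, of the mandibular prominence, entered the shared estimate of the spread, the common median and the choice of the brightest probe set of a gene. Their signals are given only for LHX8 and in a closing description. All embryos were untreated, normal tissue of unknown genotype at Hamburger Hamilton stage 18, incubated at 38 °C. Each array held RNA of 1 pool of 26 to 32 microdissected pieces, mesenchyme together with its epithelium, and the frontonasal pieces came from between the nasal pits. From each pool 500 ng of total RNA was labelled with the 2-cycle Affymetrix procedure. Signals are linear probe set intensities scaled to a common median. A log2 difference is maxillary minus frontonasal on the scale of log2(signal + 16), which understates the change of dim genes, and it is given ± its SE. A gene was called where the limma adjusted p lay under 0.05.

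The maxillary prominence grows out of the proximal first pharyngeal arch and gives the side of the upper beak and the palatal shelves, while the frontonasal mass gives the middle of the upper beak and the nasal septum. The mesenchyme of both is largely derived from cranial neural crest, which carries no HOX code in this region. At this stage the crest cells have finished migrating, the buds have formed, and cartilage, bone and muscle have not yet differentiated. Regional transcription factors, among them homeobox genes of the DLX, LHX, ALX and PAX families, and signals of the WNT, BMP, FGF, hedgehog and retinoic acid pathways pattern the buds.

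The labelled tissue was checked against markers of its components. Of 25 genes of neural crest mesenchyme, 24 were above background on at least 1 of the arrays, and the summed signal of the list was 14030 to 17350 in maxillary pools and 15000 to 16770 in frontonasal pools. Of 19 epithelial genes 18 were above background on at least 1 array. By the same measure 10419 of all 13009 genes were above background, so these 2 counts alone do not identify the tissue. The summed signal of 26 HOX genes, which face mesenchyme should lack, was 532.5, 546.2 and 595.6 in maxillary pools 1, 2 and 3, against 611.3, 1293 and 611.6 in frontonasal pools 1, 2 and 3. Of these genes 12 were above background on at least 1 array. By pool 5, 3 and 3 were above it in maxillary pools 1, 2 and 3, against 5, 9 and 5 in frontonasal pools 1, 2 and 3. Between 48% and 51.5% of the 38439 tested probe sets lay above background on the 6 arrays. The ratio of 3′ to 5′ signal of GAPDH, a sign of RNA quality, was 1.29, 1.25 and 1.19 in maxillary pools 1, 2 and 3, against 1.51, 1.27 and 1.38 in frontonasal pools 1, 2 and 3, and that of EF1a was 1.30, 1.29 and 1.25 against 1.61, 1.42 and 1.35. For actin it was 2.46, 2.30 and 1.99 in maxillary pools, against 2.41, 1.88 and 1.97 in frontonasal pools. The groups overlapped for GAPDH and actin, while for EF1a every frontonasal ratio lay above every maxillary ratio. The part of RNA quality in the differences was not tested. With 3 arrays a group precision is limited, and the p values measure only the spread between these pools.

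Frontonasal pool 2 stood apart within its group, by a count added after the values were seen. In this pool 157 of 13009 genes lay at least 1 log2 unit above both other arrays of its group, against 4 to 16 genes for each of the other arrays. These included genes of liver and gut. FGB, a fibrinogen chain made by liver, had signals of 57.2, 76.0 and 60.5 in the maxillary pools, against 49.5, 2292 and 50.6 in frontonasal pools 1, 2 and 3. GATA5, a regulator of heart and gut endoderm, reached 1069 in frontonasal pool 2, where TTR, a plasma carrier of thyroid hormone, reached 1699. The summed signal of 41 visceral genes was 2673 to 2759 in the maxillary pools, against 2943, 10860 and 3283 in frontonasal pools 1, 2 and 3. The overall counts, the list counts that change and the gene calls lost or gained are therefore also given without this pool.

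Across the genome 462 of 13009 genes (3.55%) were called, 171 higher (1.31%) and 291 lower (2.24%) in the maxillary prominence. Their median log2 difference was 0.86 among the higher and -0.86 among the lower genes. By probe set the calls were 866 of 38439 (2.25%), 350 higher (0.911%) and 516 lower (1.34%), and 226 of these named no gene. In 30 of the higher genes all frontonasal signals lay below background while at least 1 maxillary signal lay above it. In 44 of the lower genes all maxillary signals lay below background while at least 1 frontonasal signal lay above it. In 16 further called genes all signals of both groups lay below background. Without frontonasal pool 2 the fit called 444 genes (3.41%), 207 higher (1.59%) and 237 lower (1.82%). Called with and without that pool were 334 genes, 122 higher and 212 lower, and no called gene changed direction. Of the 462 calls, 215 (68 higher and 147 lower) were also made in each of the 6 fits that left out 1 maxillary or frontonasal array. A fit to the 6 arrays alone called 412 probe sets, 143 higher and 269 lower. Because the RNA is that of whole pieces, fewer cells of a type and less RNA per cell cannot be told apart in any of these differences.

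LHX8, a LIM homeobox gene of jaw and palate mesenchyme, showed the largest difference. Its signal was 2061, 1672 and 1714 in maxillary pools 1, 2 and 3, against 17.5, 28.8 and 9.52 in frontonasal pools 1, 2 and 3. The frontonasal signals all lay below background and the maxillary ones far above it, so that LHX8 was at least 50.8-fold higher, with a fitted log2 difference of 5.76 ± 0.19 (adjusted p = 8.67e-06). Its mandibular signal of 1002 ± 39.8 (SD, n = 3) lay between both. LHX6, which in mouse acts in the same arch mesenchyme, was below background on all 6 arrays.

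Further arch regulators differed in the same direction. DLX1, a homeobox gene of the proximal first arch, had 237, 260 and 192 signal units in the maxillary pools, against 7.47, 6.46 and 9.82 in the frontonasal pools. It was at least 6.39-fold higher (adjusted p = 4.34e-05), and of its other 2 probe sets 1 was called higher (1.27 ± 0.14) and 1 lay below background throughout. MAB21L1, needed for eye and craniofacial development in mouse, had 481, 376 and 210 units in maxillary pools, against 11.5, 31.0 and 1.82 in frontonasal pools, and was at least 9.44-fold higher. Its relative MAB21L2 had a log2 difference of 2.41 ± 0.30 (adjusted p = 0.00479). The maxillary pools spread more for the MAB21 genes than for DLX1, with pool 3 lowest. No maxillary signal of these genes reached the frontonasal range, and the groups were apart in each of the 462 called genes.

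Of 17 measured regulators of the maxillary and proximal arch, 7 were higher (41.2% of the list, against 1.31% of all genes) and 1 was lower, with a median log2 difference of 0.37 against -0.01 for all genes. All gene lists were chosen with earlier results of these data known, so the shares of called members are a description with no test. Besides the 4 genes above, the higher members were FOXL2, a forkhead gene known from ovary and eyelid, at 1.597 ± 0.248, MEIS2, a cofactor of homeobox proteins, at 0.81 ± 0.12, and GBX2, a homeobox gene of the hindbrain border and the arches, at 0.74 ± 0.15. Their calls were not kept in every fit that left out 1 array. FOXL2 lost its call in 2 of 6 fits (highest adjusted p 0.0605, without maxillary pool 1), MEIS2 in 2 (0.0567, without maxillary pool 2) and GBX2 in 5 (0.142, leaving out maxillary pool 2). The other MEIS2 probe set was also called higher with all arrays (1.13 ± 0.15, adjusted p = 0.0071). The lower member was TBX22, a T-box gene mutated in cleft palate, with 169, 124 and 81.2 units in maxillary pools, against 695, 340 and 456 in frontonasal pools. Its log2 difference was -1.86 ± 0.28 (adjusted p = 0.0123, and 0.0527 without maxillary pool 2). The other 9 members did not pass. Without frontonasal pool 2 the counts were again 7 and 1, with BARX1 in place of GBX2 (adjusted p of GBX2 0.118).

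Frontonasal regulators ran the other way. Of 15 measured genes 8 were lower in the maxillary prominence (53.3%, against 2.24% of all genes) and none was higher, with a median log2 difference of -1.29. This list, too, was chosen with earlier results of these data known. SP8, a zinc finger gene of ectoderm and anterior neural border that promotes outgrowth, had 55.2, 35.8 and 46.5 units in maxillary pools, against 703, 511 and 721 in frontonasal pools. Its log2 difference was -3.41 ± 0.20 (adjusted p = 0.000137). TFAP2B, an AP-2 gene of crest and ectoderm, had 554, 611 and 438 units in the maxillary pools, against 2500, 1838 and 2378 in the frontonasal pools (-2.04 ± 0.16, adjusted p = 0.000501). In both genes every maxillary pool lay below every frontonasal pool, and the groups were likewise apart in each of the 462 called genes.

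PAX7, a paired box gene of crest and neural tube, had maxillary signals of 2.95, 3.999 and 2.87, all below background, against 64.3, 66.7 and 107 in the frontonasal pools, and was at least 2.06-fold lower. PAX3, its close relative, was at least 1.99-fold lower, a call lost in 4 of 6 fits (highest adjusted p 0.0877, without maxillary pool 1). EYA2, a coactivator in placodes, differed by -1.29 ± 0.15, SOX8, a SoxE gene of crest, by -2.45 ± 0.26, and LMO1, a LIM-only cofactor, was at least 6.75-fold lower. DLX6, a homeobox gene of distal arch and olfactory region, had 162, 104 and 78.6 units in maxillary pools, against 398, 310 and 446 in frontonasal pools (-1.65 ± 0.23, adjusted p = 0.00799). The same 8 to 0 count was found without frontonasal pool 2. ALX1, a homeobox gene that patterns the frontonasal mesenchyme, showed signals of 481, 343 and 372 in maxillary pools, against 607, 586 and 728 in frontonasal pools, without overlap, and did not pass (-0.67 ± 0.14, adjusted p = 0.0566). ALX4 was below background on all 6 arrays.

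DLX5, the partner of DLX6, gave no single answer, because its probe sets disagreed. The brighter one read 1649, 1515 and 1231 in maxillary pools, against 2043, 1627 and 2153 in frontonasal pools, with overlap and no call (-0.40 ± 0.15, adjusted p = 0.267). The dimmer one read 168, 176 and 126 in maxillary pools, against 5.07, 3.85 and 5.91 in frontonasal pools, which lie below background (3.03 ± 0.16, adjusted p = 7.51e-05). The direction of DLX5 is therefore not settled here.

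**Figure D1:**
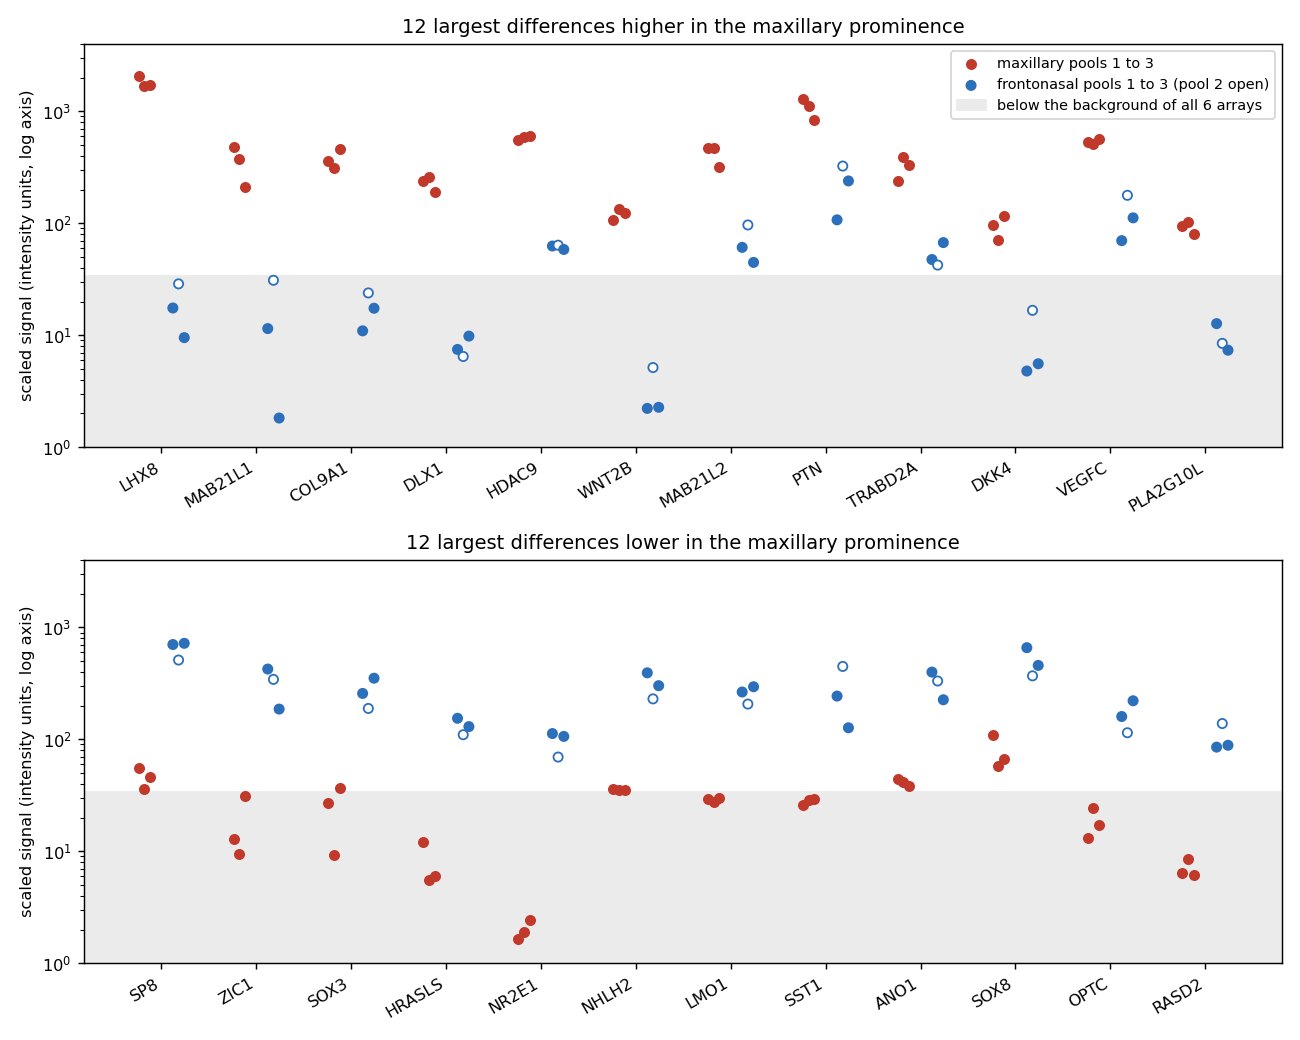
Scaled signal (log axis) of the 12 genes with the largest positive (upper panel) and the 12 with the largest negative (lower panel) log2 difference among called genes, 1 point per pool, maxillary pools left in red and frontonasal pools right in blue, with frontonasal pool 2 open. The grey band lies below the background of all 6 arrays. LHX8 sits at 1672 to 2061 in maxillary pools and below background in frontonasal pools, and SP8 at 35.8 to 55.2 against 511 to 721.

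The remaining genes among the 12 largest positive differences belonged to several classes, as the plot of largest differences shows. HDAC9, a class II histone deacetylase gene, had the smallest adjusted p among the 24 genes plotted. Its signals of 556, 592 and 606 in maxillary pools, against 62.7, 63.8 and 58.4 in frontonasal pools, were tight within both groups (2.95 ± 0.07, adjusted p = 2.06e-06). A dimmer HDAC9 probe set, at or below background, was not called (0.60 ± 0.20, adjusted p = 0.208). Neither was another that lay below background on all 6 arrays (-0.24 ± 0.15, adjusted p = 0.561). In gene order on the reference assembly HDAC9 lies beside TWIST1, a helix-loop-helix gene of crest mesenchyme, whose signal was 296 ± 61.5 in maxillary and 270 ± 33.6 in frontonasal pools (SD, n = 3 each) and was not called (adjusted p = 0.851). VEGFC, a growth factor for lymphatic and blood vessels, had 529, 511 and 567 units in maxillary pools, against 70.0, 178 and 112 in frontonasal pools (2.10 ± 0.25). PTN, a secreted heparin-binding growth factor, differed by 2.30 ± 0.35 and lost its call in 2 of 6 fits (highest adjusted p 0.0611, without maxillary pool 2). Both other PTN probe sets were also called higher with all arrays (1.74 ± 0.31 and 1.08 ± 0.17). TRABD2A, which encodes a membrane protease that cleaves WNT ligands, differed by 2.30 ± 0.19, while its other probe set, above background on all 6 arrays, was not called (0.08 ± 0.10, adjusted p = 0.823). DKK4, a secreted WNT inhibitor, was at least 2.61-fold higher, and PLA2G10L, a secreted phospholipase gene, at least 2.57-fold. Among the 12 largest negative differences, HRASLS was at least 3.475-fold lower and RASD2 at least 2.71-fold. ANO1 differed by -2.515 ± 0.176. A dimmer ANO1 probe set was also called lower (-1.225 ± 0.148), and another, below background on all 6 arrays, was not called.

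Of 25 measured genes of neural crest mesenchyme 5 were higher in the maxillary prominence (20%, against 1.31% of all genes), none was lower, and the median log2 difference was 0.11. The summed signal of the 19 epithelial genes was lower in the same pools, at 9240 to 10230 in maxillary pools, against 12870 to 15220 in frontonasal pools, and its part in these calls was not tested. SNAI1, a repressor of epithelial genes, had 1167, 1069 and 996 units in maxillary pools, against 346, 462 and 270 in frontonasal pools (1.57 ± 0.17, adjusted p = 0.00288). PRRX1, a homeobox gene of limb and face mesenchyme, had 2145, 1715 and 1785 units in maxillary pools, against 662, 751 and 974 in frontonasal pools (1.24 ± 0.15, adjusted p = 0.00437). Its relative PRRX2 differed by 1.21 ± 0.15. In all 3 genes every maxillary pool lay above every frontonasal pool, as in 20.5% of all genes in either direction. TWIST2, a helix-loop-helix gene of dermal and skeletal mesenchyme, was at least 3.33-fold higher. FOXD3, a gene of early crest, was at least 1.23-fold higher, a call lost in 4 of 6 fits (highest adjusted p 0.073, without maxillary pool 1). The other 20 members did not pass. VIM, the mesenchymal intermediate filament, averaged 3758 ± 538 units in maxillary and 4253 ± 86.0 in frontonasal pools (SD, n = 3 each, adjusted p = 0.53), and PDGFRA had a log2 difference of -0.09 ± 0.12. The counts without frontonasal pool 2 were again 5 and 0.

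Among 25 measured skeletal progenitor genes, 4 were higher (16%, against 1.31% of all genes), none was lower and the median log2 difference was 0.03. COL9A1, which encodes a chain of cartilage collagen IX, had 360, 310 and 461 units in maxillary pools, against 10.9, 23.9 and 17.4 in frontonasal pools, and was at least 10.4-fold higher (adjusted p = 7.51e-05), although its other 2 probe sets lay below background and were not called. COL9A3, a second chain of the same collagen, had 124, 123 and 150 units in maxillary pools, against 27.8, 36.1 and 37.9 in frontonasal pools (1.57 ± 0.13, adjusted p = 0.000645). A further probe set of COL9A3 was also called higher (1.97 ± 0.16) and 2 were not called. The groups of both chains were apart by their brightest probe set, as in each of the 462 called genes. COL9A2, the third chain, lay below background on all 6 arrays. MATN4, a matrilin of cartilage matrix, was at least 1.77-fold higher, and LECT1 (chondromodulin) differed by 0.81 ± 0.17, a call lost in 5 of 6 fits (highest adjusted p 0.139, without maxillary pool 2) and also without frontonasal pool 2 (0.0919), where the list had 3 higher. The fibrillar cartilage collagen COL2A1 had 191 ± 33.1 units in maxillary and 272 ± 152 in frontonasal pools (adjusted p = 0.694). SOX9, the master gene of cartilage, averaged 24.3 ± 10.8 against 5.33 ± 0.973 by its brightest probe set, below background on all 6 arrays (adjusted p = 0.0509).

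Of 20 measured members of the ventral arch and endothelin list 2 were higher (10%, against 1.31% of all genes) and none lower, with 10 positive and 10 negative differences. GSC, a homeobox gene of jaw and ear mesenchyme, was at least 1.98-fold higher, and PITX1, a regulator of the lower jaw and hindlimb, had 209, 182 and 169 units in maxillary pools, against 50.4, 50.7 and 75.4 in frontonasal pools (1.45 ± 0.14, adjusted p = 0.00138). MSX1, a BMP target, averaged 426 ± 56.0 units in maxillary and 354 ± 13.5 in frontonasal pools (adjusted p = 0.385). MSX2 had a log2 difference of -0.11 ± 0.24 and HAND2, the distal arch determinant, of -0.32 ± 0.43, with HAND2 below background on all maxillary arrays and on 2 of 3 frontonasal arrays. Both of these differences turned positive, still without a call, when frontonasal pool 2 was left out (0.13 and 0.25), and the list then had 4 higher, against 1.59% of all genes, and 1 lower.

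**Figure D2:**
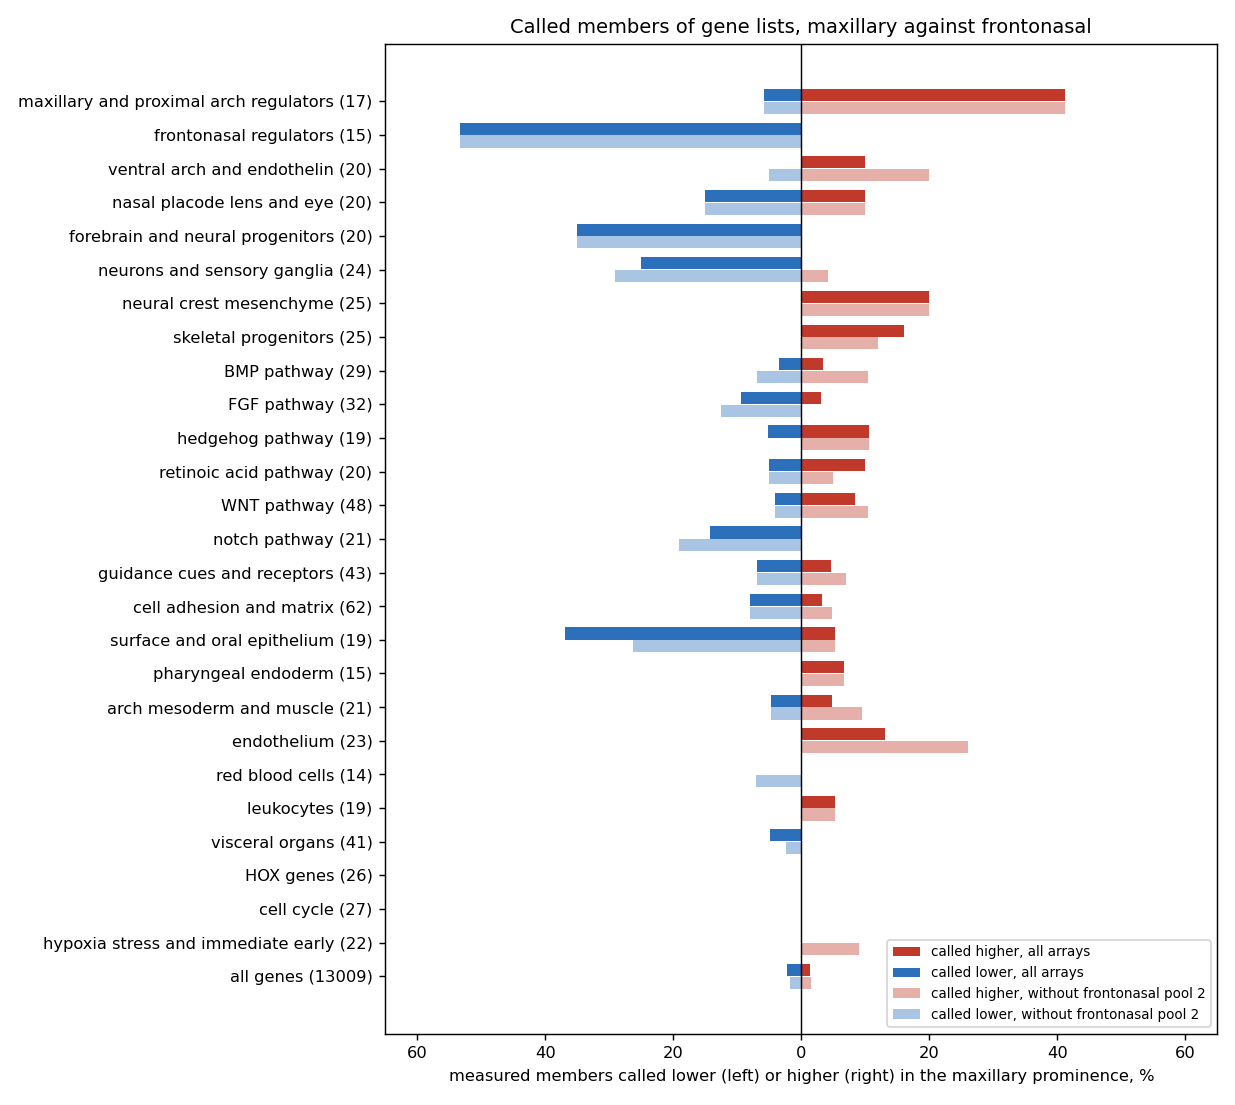
Share of measured members (number in brackets) called lower, to the left in blue, and higher, to the right in red, in the maxillary prominence. Rows are the gene lists, apart from the W chromosome genes, and all genes. Dark bars are the fit to all arrays and pale bars the fit without frontonasal pool 2. The list of frontonasal regulators reaches 53.3% lower and that of maxillary and proximal arch regulators 41.2% higher, against 2.24% and 1.31% of all genes. The lists were chosen with earlier results of these data known.

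The signalling pathways differed through single members. WNT ligands bind frizzled receptors with LRP co-receptors and are held back by secreted inhibitors. Of 48 WNT pathway genes 4 were higher and 2 lower (12.5% called, against 3.55% of all genes). The ligand WNT2B had 107, 134 and 124 units in maxillary pools, against 2.22, 5.15 and 2.27 in frontonasal pools, and was at least 3.40-fold higher (adjusted p = 1.39e-05). The receptor FZD1 had 2962, 2621 and 2510 units in maxillary pools, against 1611, 1532 and 1659 in frontonasal pools (0.74 ± 0.10, adjusted p = 0.00673), and its other probe set was not called (0.57 ± 0.12, adjusted p = 0.0525). FZD4 differed by 0.81 ± 0.13 and lost its call in 4 of 6 fits (highest adjusted p 0.0634, without maxillary pool 3). The other FZD4 probe set was also called higher with all arrays (1.26 ± 0.16, adjusted p = 0.00498). The co-receptor gene LRP6 was called while below background on all arrays. Inhibitor and receptor also differed in the other direction. SFRP2, a secreted frizzled-related inhibitor, had 828, 771 and 780 units in maxillary pools, against 1748, 1449 and 1575 in frontonasal pools (-0.99 ± 0.09, adjusted p = 0.000891). FZD3 differed by -0.47 ± 0.09, a call lost in 5 of 6 fits (highest adjusted p 0.116, without maxillary pool 2), and another of its probe sets above background on all 6 arrays showed -0.15 ± 0.18. The WNT list had 5 higher and 2 lower without frontonasal pool 2.

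Hedgehog signalling induces its own receptor PTCH1 and the ligand-binding inhibitor HHIP. Of 19 measured genes of the pathway these 2 were higher and 1 was lower (15.8% called, against 3.55% of all genes), and without frontonasal pool 2 the counts were 2 and 0. PTCH1 had 1107, 1378 and 1118 units in maxillary pools, against 554, 748 and 644 in frontonasal pools (0.88 ± 0.13, adjusted p = 0.0122). HHIP had 159, 156 and 139 units in maxillary pools, against 40.5, 88.3 and 50.9 in frontonasal pools (1.19 ± 0.21, adjusted p = 0.0246), and 5 of 6 fits lost its call (highest adjusted p 0.0953, without maxillary pool 2) while the fit without frontonasal pool 2 kept it (0.00224). The ligand SHH itself read 34.7, 31.2 and 28.7 units in maxillary pools, against 24.3, 39.9 and 21.3 in frontonasal pools, which is at or near background with overlapping groups. GLI1, another target, was below background on all 6 arrays. SCUBE2, which helps release the ligand, was lower by a small step (-0.34 ± 0.07, adjusted p = 0.0466) and lost its call in all 6 fits (highest adjusted p 0.135, without maxillary pool 1, and 0.107 without frontonasal pool 2).

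Of 29 BMP pathway genes 1 was higher and 1 lower (6.90% called, against 3.55% of all genes). ID1, a helix-loop-helix inhibitor induced by BMP signals, had 2905, 2141 and 2707 units in maxillary pools, against 751, 724 and 976 in frontonasal pools (1.64 ± 0.17, adjusted p = 0.00198). The ligand BMP7 had 244, 212 and 189 units in maxillary pools, against 500, 310 and 461 in frontonasal pools (-0.91 ± 0.17, adjusted p = 0.0349), a call lost in 5 of 6 fits (highest adjusted p 0.118, without maxillary pool 2). BMP4 overlapped between the groups, at 46.3 to 69.6 units in maxillary pools, against 24.7, 79.0 and 34.0 in frontonasal pools 1, 2 and 3. Without frontonasal pool 2, ID2 (adjusted p = 0.00287) and the ligand BMP5 (0.00125) were also called higher and BMP6 (0.013) lower, so that the counts were 3 and 2.

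Of 32 measured FGF pathway genes 3 were lower and 1 was higher (12.5% called, against 3.55% of all genes), and the median log2 difference was -0.18. SPRY2, a feedback inhibitor induced by FGF signals, had 628, 565 and 625 units in maxillary pools, against 1000, 1034 and 1034 in frontonasal pools (-0.74 ± 0.09, adjusted p = 0.00394). FGF8, a growth factor of facial ectoderm, had 70.8, 67.0 and 59.3 units in maxillary pools, against 151, 85.5 and 132 in frontonasal pools. Its groups did not overlap, and its difference of -0.74 ± 0.18 with all arrays did not pass (adjusted p = 0.0905). Without frontonasal pool 2 the difference of FGF8 was -0.95 ± 0.13 and passed (adjusted p = 0.0104). FGF13, which acts inside the cell, differed by -1.05 ± 0.12 (adjusted p = 0.00336) and the dim FGF16 by -1.11 ± 0.15, with 2 of 3 frontonasal arrays and none of the maxillary arrays above background. The transcription factor gene ETV1 differed by 0.48 ± 0.09, a call lost in 5 of 6 fits (highest adjusted p 0.124, without maxillary pool 1). The FGF list had 4 lower and none higher without frontonasal pool 2.

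Retinoic acid is made by ALDH1A enzymes, broken down by CYP26 enzymes and read by RAR and RXR receptors. Of 20 measured genes of this pathway 2 were higher and 1 lower (15% called, against 3.55% of all genes), and without frontonasal pool 2 the counts were 1 and 1. The enzyme ALDH1A3 had 96.8, 51.2 and 54.4 units in maxillary pools, against 279, 187 and 243 in frontonasal pools (-1.62 ± 0.22, adjusted p = 0.00751). RARB, a receptor that is also a target of retinoic acid, had 1010, 828 and 900 units in maxillary pools, against 574, 478 and 626 in frontonasal pools (0.69 ± 0.12, adjusted p = 0.0254), while its second probe set above background was not called (0.64 ± 0.22, adjusted p = 0.219). The synthetic enzyme and the receptor thus differed in opposite directions, the receptor with a call lost in 5 of 6 fits (highest adjusted p 0.0843, without maxillary pool 1, and 0.0532 without frontonasal pool 2). MEIS2, described above, was the other higher member. CYP26A1 showed signals of 126, 74.5 and 107 in maxillary pools, against 200, 367 and 160 in frontonasal pools, and did not pass (-1.07 ± 0.29, adjusted p = 0.125).

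In the notch pathway 3 of 21 measured genes were lower (14.3%, against 2.24% of all genes) and none was higher. The ligand DLL1 had 86.1, 92.9 and 94.9 units in maxillary pools, against 256, 260 and 348 in frontonasal pools (-1.49 ± 0.13, adjusted p = 0.00083). LFNG, a glycosyltransferase that tunes the receptor, had 782, 706 and 691 units in maxillary pools, against 1273, 1308 and 1388 in frontonasal pools (-0.85 ± 0.09, adjusted p = 0.00252). HES5, a target gene, differed by -1.87 ± 0.14 (adjusted p = 0.00041). A dimmer probe set of each of these 3 genes, near background, was not called, at -0.21 ± 0.13 for DLL1, 0.09 ± 0.14 for LFNG and -0.48 ± 0.16 for HES5. The receptor genes NOTCH1 and NOTCH2 did not pass, with log2 differences of 0.07 ± 0.16 and -0.47 ± 0.12, and NOTCH2 passed without frontonasal pool 2 (adjusted p = 0.00977).

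**Figure D3:**
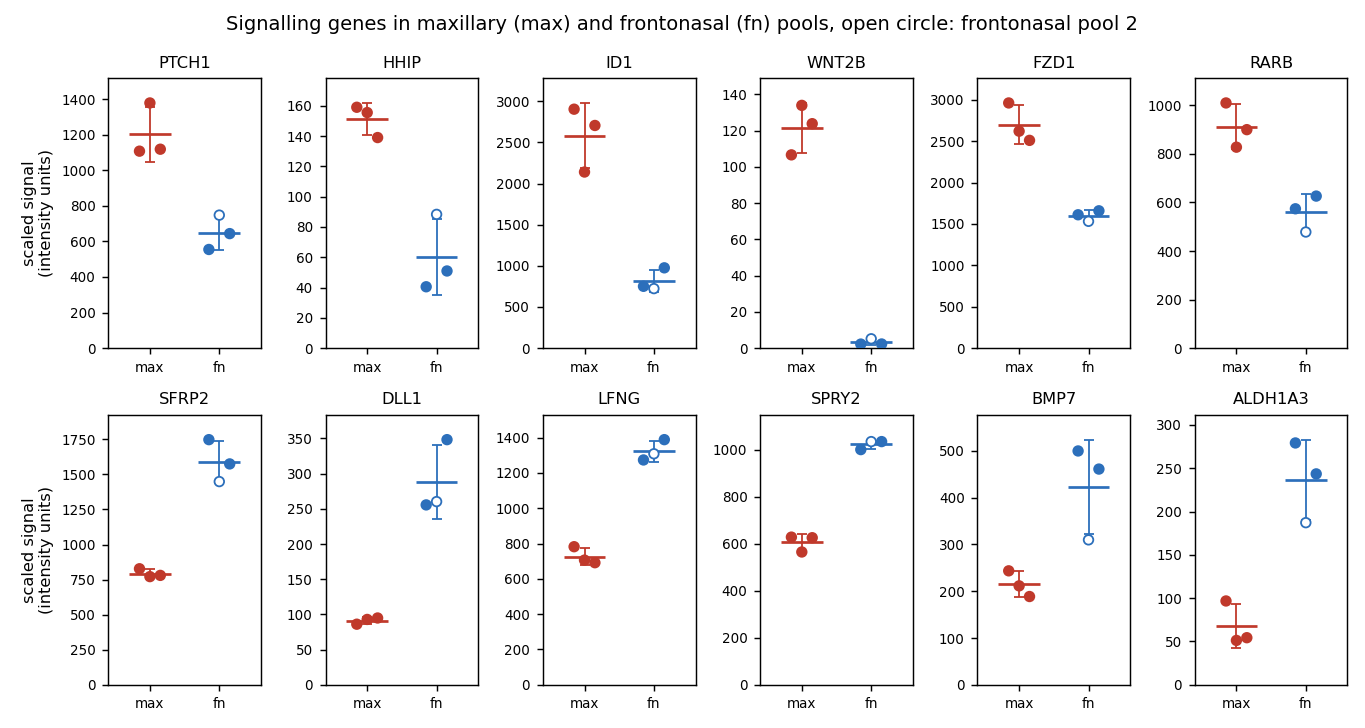
Scaled signal of 12 signalling genes, 1 point per pool, maxillary pools left in red and frontonasal pools right in blue (pool 2 open), with the mean as a line and the SD as bars (n = 3 each). The upper row holds genes higher in the maxillary prominence and the lower row genes lower in it. No maxillary point overlaps the frontonasal points, for example 782, 706 and 691 against 1273, 1308 and 1388 for LFNG. The genes shown were all called, and the groups did not overlap in any of the 462 called genes.

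Guidance and adhesion genes differed in both directions. Of 43 guidance cues and receptors 2 were higher and 3 lower (11.6% called, against 3.55% of all genes), and without frontonasal pool 2 these counts were 3 and 3. UNC5C, a netrin receptor, had 434, 341 and 464 units in maxillary pools, against 132, 197 and 168 in frontonasal pools (1.25 ± 0.16, adjusted p = 0.00622), with its other probe set at 0.62 ± 0.16 and not called (adjusted p = 0.0981). EPHA3, an ephrin receptor, differed by 1.09 ± 0.18 (highest adjusted p 0.0678, without maxillary pool 1, lost in 4 of 6 fits). The ephrin EFNA5 differed by -0.78 ± 0.12 (lost in 1 fit, 0.0586 without maxillary pool 2), its receptor EPHA5 by -0.74 ± 0.11 (lost in 2, highest 0.0556 without maxillary pool 3) and SEMA5A by -0.41 ± 0.08 (lost in 5, highest 0.117 without maxillary pool 2). Of 62 adhesion and matrix genes 2 were higher, PTN and NELL2, and 5 were lower (11.3% called), and without frontonasal pool 2 these counts were 3 and 5. OPTC, an eye proteoglycan gene, was at least 4.26-fold lower, and COL6A1, a collagen VI chain, had 41.6, 49.5 and 43.4 units in maxillary pools, against 226, 124 and 157 in frontonasal pools (-1.57 ± 0.18, adjusted p = 0.00303), while its other 2 probe sets, at least partly below background, were not called (-0.41 ± 0.30 and 0.06 ± 0.25). POSTN, a matrix protein of periosteum and cushions, had 718, 633 and 725 units in maxillary pools, against 1214, 1492 and 1361 in frontonasal pools (-0.95 ± 0.11, adjusted p = 0.00369). The cadherins CDH1 of epithelia and CDH2 of neural tissue and mesenchyme were both lower, CDH2 by -0.83 ± 0.13 with its other probe set at -0.81 ± 0.13. The call of CDH2 was lost in 3 of 6 fits (highest adjusted p 0.0732, without maxillary pool 2), as was that of NELL2 (0.0732, without maxillary pool 2).

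Markers of other cell types that the pieces could hold also moved with the comparison. Of 19 measured genes of surface and oral epithelium 7 were lower (36.8%, against 2.24% of all genes), 1 was higher, and the median log2 difference was -0.40. The summed signal of these 19 genes was 10230, 9769 and 9240 in maxillary pools, against 12870, 14790 and 15220 in frontonasal pools, without overlap. CDH1, the epithelial cadherin, had 623, 568 and 500 units in maxillary pools, against 913, 1343 and 1453 in frontonasal pools (-1.09 ± 0.17, adjusted p = 0.0159). EPCAM, an epithelial adhesion gene, had 2655, 2567 and 2443 units in maxillary pools, against 3526, 3395 and 3786 in frontonasal pools, and all 3 of its probe sets were called lower. The desmosomal gene DSP differed by -0.85 ± 0.11 (adjusted p = 0.00491), and its other 2 probe sets by -0.45 ± 0.13 and -0.31 ± 0.10 without a call. KRT14, a keratin of basal cells, ran the other way, with 620, 510 and 443 units in maxillary pools, against 281, 362 and 294 in frontonasal pools (0.71 ± 0.14, adjusted p = 0.0357). The part of the epithelial share in the lower signals of ectodermal genes such as SP8 and TFAP2B was not tested. DSP apart, each epithelial call was lost in 2 to 6 of the 6 fits, with a highest adjusted p of 0.0648 for CDH1, 0.0731 for EPCAM and 0.113 for KRT14, each without maxillary pool 2. Without frontonasal pool 2 the list had 5 lower and 1 higher.

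Of 20 measured genes of forebrain and neural progenitors 7 were lower (35%, against 2.24% of all genes) and none was higher, with the same counts without frontonasal pool 2, and the median log2 difference was -0.10. ZIC1, a zinc finger gene of dorsal neural tissue, had 12.8, 9.501 and 31.1 units in maxillary pools, all below background, against 425, 344 and 187 in frontonasal pools, and was at least 8.03-fold lower. SOX3, which keeps neural precursors undifferentiated, was at least 6.88-fold lower and NR2E1, a nuclear receptor of forebrain progenitors, at least 2.51-fold. ZIC2 had 174, 145 and 185 units in maxillary pools, against 535, 420 and 496 in frontonasal pools (-1.44 ± 0.13). SIX3, a forebrain and lens determinant, differed by -1.73 ± 0.22 and DMRT3, a gene of the dorsal telencephalon, by -1.38 ± 0.18. The 13 members that did not pass ran both ways. OTX2, a regulator of the anterior head, averaged 312 ± 18.0 units in maxillary and 486 ± 87.3 in frontonasal pools (SD, n = 3 each), without overlap and without a call (-0.60 ± 0.16, adjusted p = 0.124). FEZF2 and NKX2-1 lay below background on all 6 arrays, and HESX1 and FABP7 had log2 differences of 0.37 ± 0.17 and 0.28 ± 0.12. The summed signal of the list was 1861 to 2180 in maxillary pools, against 2938 to 3693 in frontonasal pools.

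Of 24 genes of neurons and sensory ganglia 6 were lower (25%, against 2.24% of all genes) and none higher. NHLH2, a helix-loop-helix gene of newborn neurons, had 36.2, 35.5 and 35.6 units in maxillary pools, against 393, 230 and 302 in frontonasal pools, and was at least 8.04-fold lower. A second NHLH2 probe set, above background on 2 of 3 arrays of each group, showed no call (-0.13 ± 0.24, adjusted p = 0.887). SCG2, a secretory granule gene, differed by -1.59 ± 0.17 by its brightest probe set and by -0.89 ± 0.14 by a dimmer one, while another above background on all 6 arrays was not called (-0.09 ± 0.12, adjusted p = 0.839). The proneural genes NEUROG1 and NEUROG2 were called while below background on all 6 arrays, except for NEUROG1 in frontonasal pool 2 (39.6 units). ELAVL4 and STMN2, of differentiating neurons, had log2 differences of -0.85 ± 0.17 and -0.99 ± 0.20, and lost their calls in 5 and 6 of 6 fits (highest adjusted p 0.124 without maxillary pool 3 and 0.16 without maxillary pool 2). CHGA, a granule protein of neuroendocrine cells that was on no list and is named after its values were seen, had 51.7, 52.1 and 55.6 units in maxillary pools, against 444, 245 and 331 in frontonasal pools (-2.33 ± 0.18). Without frontonasal pool 2 the list had 7 lower and 1 higher, and the part of neural cells in the pieces in these differences was not tested.

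Placode, lens and eye genes were called in both directions, 2 higher and 3 lower among 20 (25% called, against 3.55% of all genes). EBF2 and EBF3, helix-loop-helix genes of olfactory and mesenchymal cells, were higher by 1.13 ± 0.13 and 0.92 ± 0.13. EBF3 had 706, 686 and 647 units in maxillary pools, against 420, 290 and 354 in frontonasal pools, and of its other 2 probe sets 1 was called (0.97 ± 0.14) and 1 was not (-0.04 ± 0.10). SIX6, an eye and pituitary gene, was at least 1.34-fold lower and PROX1, a homeobox gene of lens and lymphatic vessels, at least 2.45-fold, with the call of PROX1 lost in 3 of 6 fits (highest adjusted p 0.0583, without maxillary pool 1). PAX6, required for eye and nasal placode, showed 116, 87.4 and 79.5 units in maxillary pools, against 156, 151 and 187 in frontonasal pools, without overlap and without a call (-0.72 ± 0.18, adjusted p = 0.104).

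Of 23 endothelial genes 3 were higher (13.0%, against 1.31% of all genes) and none lower, with a median log2 difference of 0.22. Leaving out frontonasal pool 2 gave counts of 6 and 0, against 1.59% of all genes higher, with a median of 0.48. CD34, a surface protein of vessel and blood progenitor cells, had 271, 229 and 199 units in maxillary pools, against 89.0, 130 and 109 in frontonasal pools (0.99 ± 0.15, adjusted p = 0.0115, and 0.052 without maxillary pool 2). CDH5, the cadherin of vessel walls, had 850, 714 and 783 units in maxillary pools, against 340, 645 and 314 in frontonasal pools 1, 2 and 3. Pool 2 alone lay near the maxillary range, and CDH5 passed only without it (adjusted p = 0.11 with all arrays, 0.00173 without). SOX18 and FLI1, regulators of vessel growth, differed by 0.74 ± 0.13 and 0.63 ± 0.13, with calls lost in 4 and 6 of 6 fits (highest adjusted p of SOX18 0.11, without maxillary pool 2, and of FLI1 0.119, leaving out maxillary pool 1). The summed signal of the list was 4290 to 5187 in maxillary pools, against 3116, 4217 and 3150 in frontonasal pools 1, 2 and 3. The part of vessel cells in the higher VEGFC signal was not tested.

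Among 15 pharyngeal endoderm genes 1 was higher (6.67% called, against 3.55% of all genes). It was PAX9, a paired box gene of endoderm and of jaw mesenchyme. PAX9 had 138, 148 and 123 units in maxillary pools, against 31.0, 38.0 and 39.2 in frontonasal pools (1.55 ± 0.14, adjusted p = 0.00109). Of 21 genes of arch mesoderm and muscle 1 was higher and 1 lower (9.52% called, against 3.55% of all genes). The muscle determinant MYF5 was at least 1.43-fold higher (adjusted p 0.0537 without maxillary pool 2). The embryonic myosin light chain MYL4 differed by -1.83 ± 0.17, with 201, 145 and 137 units in maxillary pools, against 629, 494 and 707 in frontonasal pools. The muscle list had 2 higher and 1 lower without frontonasal pool 2. Of 14 red blood cell genes none was called with all arrays, 12 had negative differences and the median was -0.24. Their summed signals overlapped, at 22530 to 28230 in maxillary and 28110 to 28710 in frontonasal pools. The membrane anion exchanger gene SLC4A1 was called lower without frontonasal pool 2 (-0.85 ± 0.16, adjusted p = 0.0403). Among 19 leukocyte genes 1 was higher (5.26% called, against 3.55% of all genes), which was CD3E, a T cell receptor subunit (0.81 ± 0.08, adjusted p = 0.00209). Of the 41 visceral genes 2 were lower (4.88%, against 2.24% of all genes). In this list 32 genes had negative differences and the median was -0.22 (-0.05 without frontonasal pool 2, where 1 was lower). The hormone gene SST1 (somatostatin) was at least 6.41-fold lower with 25.8, 28.6 and 29.4 units in maxillary pools, against 244, 448 and 127 in frontonasal pools 1, 2 and 3, and kept its call without pool 2 (adjusted p = 0.00525). The steroid enzyme gene CYP17A1 was below background in both groups. None of 26 HOX genes, 27 cell cycle genes, 22 stress and immediate early genes and 4 W chromosome genes was called by limma with all arrays. The share called among all genes was 3.55%, and lists this short cannot show a lower share. Without frontonasal pool 2 the stress genes HSPB1 and LDHA were called higher, against 1.59% of all genes. HSPB1 lay below background in all maxillary pools and in frontonasal pools 1 and 3.

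**Figure D4:**
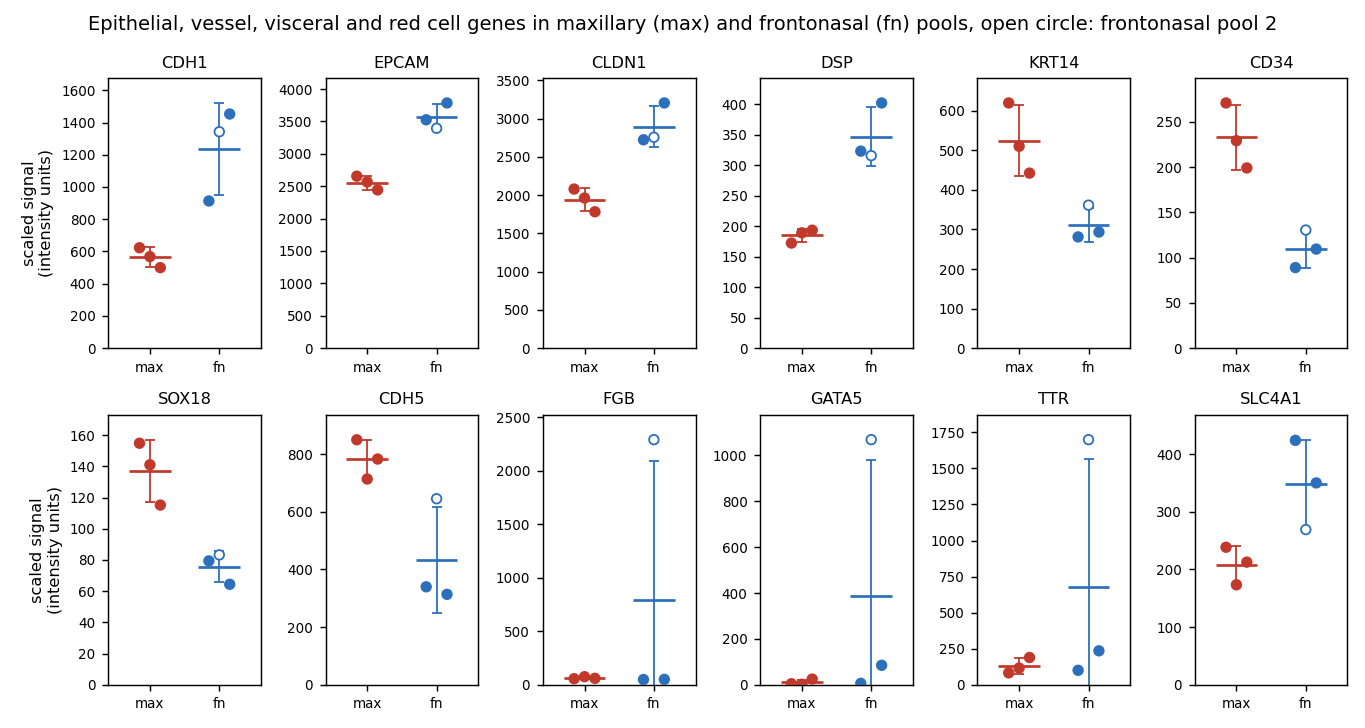
Scaled signal of epithelial (CDH1, EPCAM, CLDN1, DSP, KRT14), vessel (CD34, SOX18, CDH5), visceral (FGB, GATA5, TTR) and red cell (SLC4A1) genes, 1 point per pool, maxillary pools left in red and frontonasal pools right in blue (pool 2 open), with the mean as a line and the SD as bars cut at 0 (n = 3 each). The visceral genes are high in frontonasal pool 2 alone, for FGB 2292 against 49.5 and 50.6 in the other frontonasal pools.

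Leaving out frontonasal pool 2 added 110 genes to the calls, 85 higher and 25 lower, and took 128 away, 49 higher and 79 lower. In each of the 85 genes pool 2 lay above both other frontonasal pools, and in each of the 25 below both. The genes were selected by a call gained without pool 2, so these positions go with the selection and test nothing. Several of the added genes act in the arches. BARX1, a homeobox gene of arch and stomach mesenchyme, had 1152, 959 and 853 units in maxillary pools, against 362, 1214 and 373 in frontonasal pools 1, 2 and 3. Its log2 difference was 0.82 ± 0.40 with all arrays (adjusted p = 0.428) and 1.38 ± 0.15 without pool 2 (adjusted p = 0.00454). NKX3-2, a homeobox gene of the jaw joint that is also expressed in gut mesenchyme, had 158, 204 and 163 units in maxillary pools, against 18.0, 305 and 22.5 in frontonasal pools 1, 2 and 3 (2.39 ± 0.14 without pool 2, adjusted p = 0.000336). For both genes the maxillary pools lay above frontonasal pools 1 and 3 and below pool 2. The largest of these differences was that of PKDCCA, related to a secreted kinase of skeletal development, with 485, 553 and 493 units in maxillary pools, against 34.3, 395 and 54.7 in frontonasal pools 1, 2 and 3. The endothelin receptor gene EDNRB (1.51 ± 0.16 without pool 2, adjusted p = 0.0038) and GFRA1, a receptor for GDNF (1.497 ± 0.147, adjusted p = 0.00274), were further examples.

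**Figure D5:**
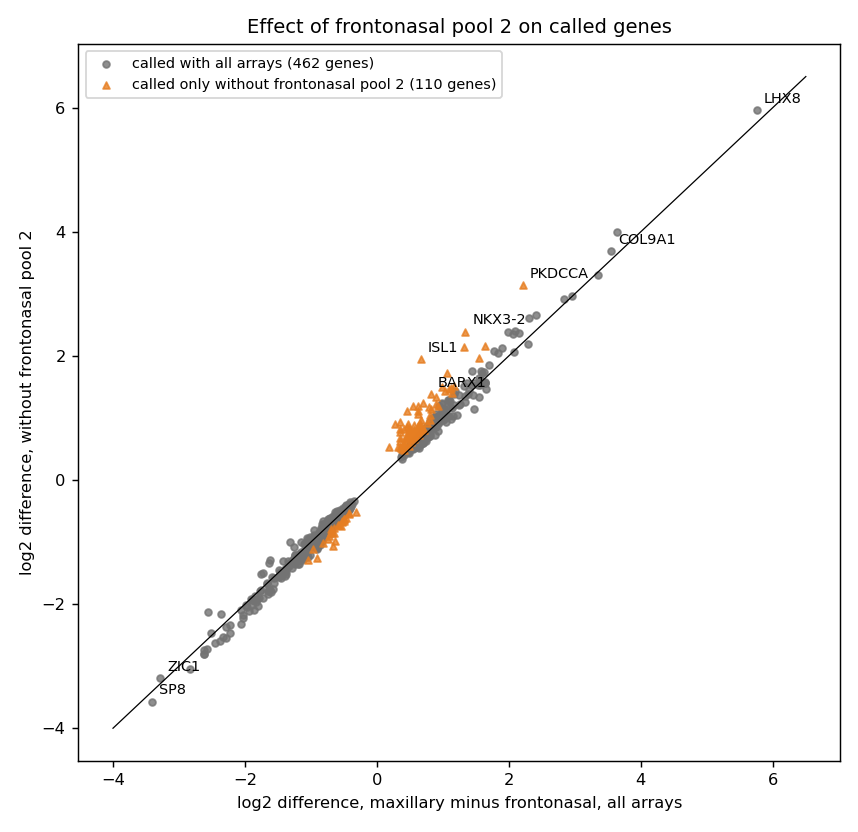
Log2 difference, maxillary minus frontonasal, without frontonasal pool 2 (vertical axis) against that with all arrays (horizontal axis), for the 462 genes called with all arrays (grey circles) and the 110 called only without the pool (orange triangles), with the line of equal values. The 2 axes share 8 of 9 arrays. PKDCCA, NKX3-2 and ISL1 lie furthest above the line.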

How the data were processed

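RNA of 3 pools each of maxillary, frontonasal and mandibular tissue was measured on Affymetrix chicken arrays, 1 array per pool, and samples were grouped by their titles. The deposited values are linear intensity values of 38535 probe sets, and no source used here names the software that summarised them. Trimmed by 2% at either end, every column as deposited averaged 150, a sign of earlier scaling. Here 96 control probe sets were left out, a common median was set (factors 0.961 to 1.04) and log2(signal + 16) was fitted with limma 3.58.1 in R 4.3.3 to all 9 arrays as group means (6 residual degrees of freedom). Benjamini-Hochberg adjustment ran over 38439 probe sets. The fit was tested on simulated data.

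Background on an array was the 95th percentile of 744 viral and reporter probe sets without a gene name (33.8 to 38.7 on the 6 arrays). Where all 3 arrays of the dimmer group lay below it, the difference is given as at least N-fold, taking the brighter group's mean log2 signal over the dimmer group's, in which no array counted lower than its own background. No fold is given where neither group passed background or where the bound fell under 1.

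Names came from the platform annotation supplied (27168 probe sets with 1 gene, 177 with several and 11094 with none), updated through a gene table of assembly GRCg7b that held 26853 of them and also gave gene order. The brightest probe set stood for a gene. Genes named came from a panel of 36 (34 measured), the 12 largest differences in each direction among called genes without overlap, and called members of 27 lists. CHGA and genes given as not called, or as called only without frontonasal pool 2, were chosen after their values were seen. The panel, lists and rule were chosen with earlier results of these data known. Alternatives left out each array or the mandibular arrays, blocked on replicate number, and changed the pseudocount, scaling, filter and variance trend.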

Additional observations from a re-analysis of the deposited data

How the results depend on the processing

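Against 866 probe sets called (350 higher, 516 lower), the fit to the 6 arrays alone called 412 (143 higher, 269 lower) and log2(signal + 1) called 531 (211 higher, 320 lower). Other alternatives gave 926 to 1015 probe sets (log2(signal + 64) 1015, quantile normalization 935, values as deposited 926, without the dimmest 40% 990, intensity trend 937). Leaving out 1 array gave 424 to 797 in all, 152 to 363 higher and 272 to 434 lower: 535, 424 and 523 without maxillary pools 1, 2 and 3, and 596, 797 and 637 without frontonasal pools 1, 2 and 3. Deviations of same-numbered maxillary and frontonasal pools correlated at 0.017, 0.028 and 0.032, and those of differently numbered pools at -0.024 to -0.007. The deviations were taken from the mean of the 3 pools of a group, so they cancel out within it. Positive values for same-numbered pools therefore force negative values elsewhere, which are no separate observation. All these correlations are small, and whether same-numbered pools share more than a number was not tested. Each maxillary pool correlated best with the frontonasal pool of its number, but 3 pools a group are too few to read a pairing from this. The fit with the replicate number as a block called 684 probe sets (263 higher, 421 lower). Of 99 called genes on the lists and in the panel and largest differences, 64 to 98 stayed called under each alternative, and the rest missed the threshold with the same direction or, for 10 genes, were not tested without the dimmest probe sets. Uncalled genes that changed sign when 1 array was left out were MSX2 (-0.41 to 0.13) and HAND2 (-0.64 to 0.25), positive only without frontonasal pool 2, and ALX4 (-0.045 to 0.20), negative only without maxillary pool 3. The causes were not tested. Signals near background limit ALX4, LHX6, SHH, HAND2 and the proneural genes.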

Other observations

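Genes on either side of the 24 largest differences, taken as the 3 nearest measured coding genes in the order of the reference assembly, numbered 142, of which 5 (3.52%) were called, against 3.55% of all genes. Beside DLX1 lay METAP1D, a methionine aminopeptidase gene, with 247, 246 and 253 units in maxillary pools, against 86.8, 92.1 and 88.7 in frontonasal pools (1.33 ± 0.10, adjusted p = 0.000501), and 2 places further SLC25A12, a mitochondrial carrier gene, with 836, 792 and 646 units in maxillary pools, against 308, 290 and 319 in frontonasal pools (1.26 ± 0.11, adjusted p = 0.000668). HAT1, a histone acetyltransferase gene between them, had a log2 difference of 0.41 ± 0.10 and did not pass (adjusted p = 0.108), nor did ITGA6, PDK1 and PPP1R19L on the other side of DLX1. NBEA, next to MAB21L1, differed by 0.79 ± 0.15 (adjusted p = 0.032), a call lost in 4 of 6 fits that left out 1 array (highest adjusted p 0.121, without maxillary pool 2, and 0.0814 without frontonasal pool 2). Also called were BTG2, 3 places from OPTC (-0.96 ± 0.16, adjusted p = 0.0194), and MB21D2, 2 places from HRASLS (-0.87 ± 0.17, adjusted p = 0.0441). These genes were chosen after their values were seen, and the called share of the neighbours was near that of all genes.

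Further called genes lay outside the lists, and those given here were also named after their values were seen. MYLK, the myosin light chain kinase of smooth muscle, had 595, 536 and 532 units in maxillary pools, against 1963, 1948 and 2184 in frontonasal pools (-1.85 ± 0.09, adjusted p = 7.51e-05). PRSS23, a secreted protease gene, had 322, 289 and 293 units in maxillary pools, against 944, 979 and 1045 in frontonasal pools (-1.66 ± 0.08, adjusted p = 7.51e-05). ANTXR1, a collagen-binding receptor gene, differed by -2.22 ± 0.13, and MECOM, a zinc finger regulator, by 1.64 ± 0.13 with 152, 160 and 163 units in maxillary pools, against 48.6, 35.9 and 36.3 in frontonasal pools.

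The mandibular mean lay nearer to the maxillary than to the frontonasal mean in 136 of the 171 higher genes (79.5%) and in 252 of the 291 lower genes (86.6%), against 60.2% of all genes. The genes were chosen by the difference of the 2 groups they are measured against, so these shares are a description with no test.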
